A study of Homo sapiens with 34 samples.

Results

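The distal part of human chromosome band 8q24 was described here as the 4 Mb of chromosome 8 that end just before base 138000001 (hg38), together with a strong site in the 5 kb at chr8:136905001-136910000. Members were all peaks of an H3K9 methylation assay whose midpoint lay in that stretch. There were 2296 of them among 1034291 peaks in 34 lists, 1833 in lists of PC3 DM cells and 463 in lists of COLO320 DM cells. PC3 DM is a line from a prostatic adenocarcinoma and COLO320 DM one from a colorectal adenocarcinoma, and both carry the oncogene MYC on extrachromosomal DNA (ecDNA), circular DNA outside the chromosomes. The assay was CUT&Tag, in which an antibody guides a transposase to marked chromatin, with a rabbit antibody labelled anti-H3K9me, the degree of methylation not being given. Each library came from 50000 nuclei collected 3 days after the cells received 700 ng of plasmid carrying guide RNAs. PC3 DM had 3 libraries each for the plasmids ecSE1, ecSE2, ecSE6 and ecSEcombo, 2 for ecSE7 and 2 for the empty vector. COLO320 DM had 3 libraries each for ecSE1, ecSE2, ecSE3, ecSE4, ecSEcombo and the empty vector. The labels give neither the positions of the targeted elements nor what the combination contains, and do not say whether any of the 4 Mb lies on ecDNA.

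Methylation of histone H3 at lysine 9 marks compact, mostly silent chromatin, where HP1 proteins read the mark and help to spread it. Gene-poor stretches and repeats often carry it. The 4 Mb described here are such a gene-poor stretch. They hold the zinc-finger gene ZFAT, the RNA-binding splicing regulator gene KHDRBS3 and a number of long noncoding RNA genes, of which LINC02055 is the longest. Beyond KHDRBS3 no protein-coding gene follows before FAM135B. Of 29 RefSeq genes that overlapped the 4 Mb, 3 were listed as protein-coding, and all genes together covered 34.6% of the sequence.

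The lists held 10288 to 102286 peaks in PC3 DM and 9385 to 125213 in COLO320 DM, with 2 above 100000 (PC3 DM ecSEcombo replicate 1 and COLO320 DM ecSE1 replicate 2). The depth in reads is unknown, since no totals were used.

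The 4 Mb took a larger share of the H3K9me peaks in PC3 DM than in COLO320 DM. The share was 0.253% to 0.399% of a library's peaks in PC3 DM, with a median of 0.312%, and 0.0426% to 0.141% in COLO320 DM, with a median of 0.0821%. Every PC3 DM library lay above every COLO320 DM library. The PC3 DM libraries averaged 0.315% ± 0.0418 (SD, n = 16) and the COLO320 DM libraries 0.0858% ± 0.0268 (SD, n = 18). The difference was 0.230 percentage points (two-sided permutation test, p = 1e-05, the smallest 100000 resamples can give). Because the region was chosen with earlier results of these data known, this p takes no account of that choice. Relative to the mean density over the genome, the region was 1.91 to 3.02 times as dense in PC3 DM and 0.323 to 1.07 times as dense in COLO320 DM. Among 715 windows of 4 Mb over the genome, 6 to 23 held more peaks than the region in PC3 DM libraries, whereas 329 to 610 did in COLO320 DM libraries. Restricted to vector libraries, the difference was 0.273 points, and the exact permutation test could give no p below the 0.1 it gave.

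Covered length followed the same order. Peaks covered 10578 to 97058 bp of the region in PC3 DM, with a median of 32356 bp, and 1129 to 35936 bp in COLO320 DM, with a median of 5062 bp. As a share of all base pairs under peaks this was 0.340% ± 0.0449 for PC3 DM libraries, against 0.0718% ± 0.0240 for COLO320 DM libraries (SD). Peaks were short in both lines: the median width in the region was 266 ± 66.2 bp in PC3 DM and 320 ± 57.9 bp in COLO320 DM, against 264 ± 65.0 bp and 344 ± 59.8 bp over all peaks of those lines.

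In height, region peaks and all peaks overlapped in both lines. Fold is the authors' ratio of summit signal to local background, with a constant added to both. Its median per PC3 DM library was 4.92 to 5.75 in the region, and 4.93 to 5.61 over all peaks of those libraries. In COLO320 DM the medians were 5.03 to 6.46 in the region and 5.19 to 5.87 over all peaks. The local background itself differed: the number of fragments expected under each summit can be solved for from the deposited fold and p, and its median in the region was 2.68 to 4.20 times the median of peaks sampled over the genome in PC3 DM libraries, and 0.338 to 0.991 times in COLO320 DM libraries. In COLO320 DM ecSE1 replicates 1 and 2, ecSE4 replicate 1 and ecSEcombo replicate 1, the region median lay at the lowest background among the sampled peaks. There the ratio reflects that floor. The highest ratio, 0.991, was that of ecSE1 replicate 2, with a region median of 0.720 and a sampled median of 0.727. What the background was estimated from is not stated. The part of this background in the difference in peak number was not tested.

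**Figure D1:**
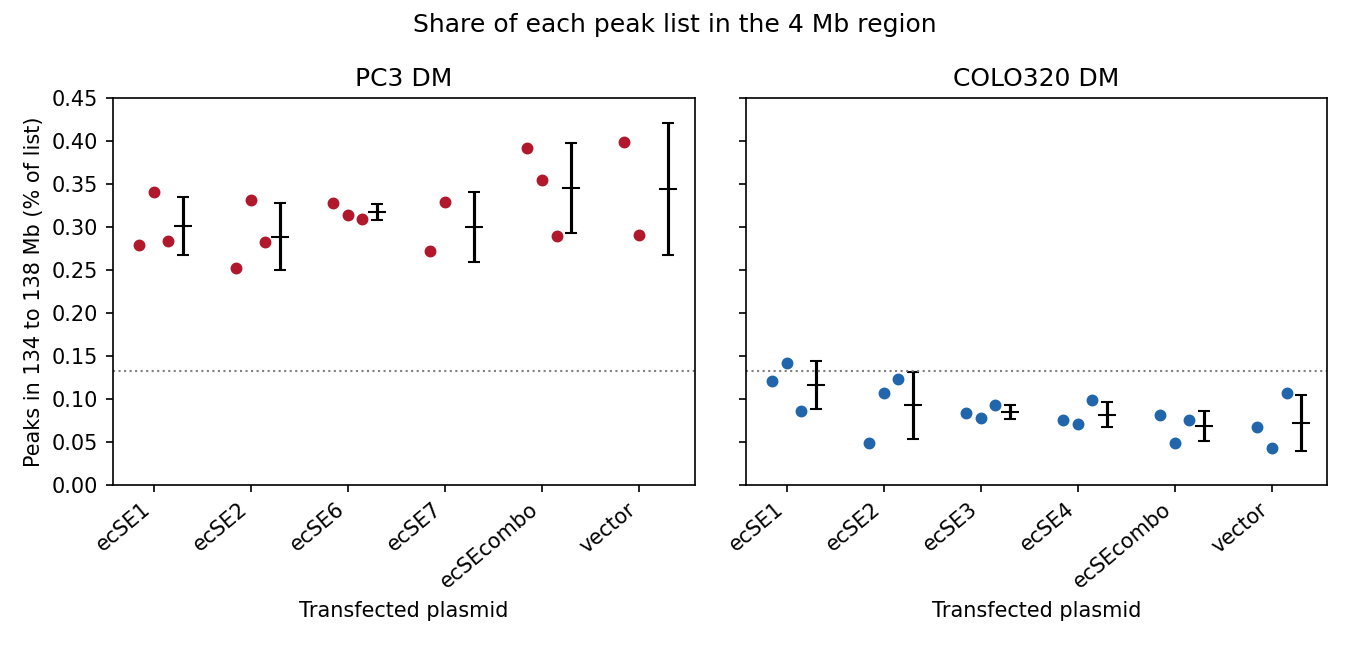
Percentage of each library's H3K9me peaks that lay in the 4 Mb region (vertical axis), by transfected plasmid, for PC3 DM (left) and COLO320 DM (right). Points are libraries, bars the mean and SD of each plasmid, and the dotted line is the share an even spread over the genome would give; all PC3 DM points (0.253% to 0.399%) lie above all COLO320 DM points (0.0426% to 0.141%), and each plasmid overlaps the vector of its line.

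Within PC3 DM the peaks were unevenly spread along the 4 Mb. From the first to the fourth megabase the density was 1.08 ± 0.394, 1.87 ± 0.406, 3.53 ± 0.815 and 3.07 ± 0.468 times the genome mean (SD, n = 16). All 16 PC3 DM libraries had more peaks in the upper 2 Mb than in the lower 2 Mb, which held 78.2 ± 59.9 and 36.4 ± 28.9 peaks. In COLO320 DM the same megabases had 0.563 ± 0.239, 0.542 ± 0.342, 0.587 ± 0.241 and 0.907 ± 0.438 times the genome mean (SD, n = 18). There 15 of 18 libraries had more peaks in the upper 2 Mb, at 14.9 ± 23.3 against 10.8 ± 15.6 peaks. Peak midpoints fell inside a RefSeq gene in 28.3% ± 4.40 of region peaks in PC3 DM and 32.7% ± 13.0 in COLO320 DM, beside the 34.6% of sequence that genes covered.

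The 4 Mb on either side were counted in the same libraries. Against the 4 Mb above it, the region was denser in PC3 DM, with 28.6 ± 22.1 and 16.6 ± 11.7 peaks per Mb and a mean difference of 12.0, higher in 16 of 16 libraries (exact sign-flip permutation test, two-sided, p = 3.05e-05, the smallest possible; adjusted p = 6.1e-05 over 4 comparisons). In COLO320 DM the region was sparser than the 4 Mb above it, with 6.43 ± 9.66 and 19.7 ± 11.8 peaks per Mb, higher in 0 of 18 libraries (difference -13.2; sign-flip permutation test, p = 1e-05, adjusted p = 4e-05). The density in COLO320 DM stepped up at the upper edge of the region: its last 0.5 Mb had 1.26 ± 0.778 times the genome mean and the next 0.5 Mb 6.20 ± 1.97 times. In PC3 DM those same windows had 3.19 ± 0.746 and 3.74 ± 1.22 times the genome mean.

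Against the 4 Mb below it the order in PC3 DM depended on the measure. The region had 28.6 ± 22.1 and the lower neighbour 25.1 ± 11.0 peaks per Mb, higher in 8 of 16 libraries (difference 3.52, exact sign-flip permutation test, p = 0.285). By covered length the region was lower, at 8.40 ± 4.94 against 10.7 ± 2.99 kb per Mb (difference -2.30 kb per Mb, p = 0.0103 by the same exact permutation test). In COLO320 DM the region had 6.43 ± 9.66 and the lower neighbour 7.65 ± 10.3 peaks per Mb, higher in 2 of 18 libraries (difference -1.22, sign-flip permutation test, p = 0.00083, adjusted p = 0.00111). Within that lower neighbour, a single window at 130.5 to 131.0 Mb reached 7.39 ± 3.79 times the genome mean in PC3 DM and 1.04 ± 0.555 times in COLO320 DM.

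**Figure D2:**
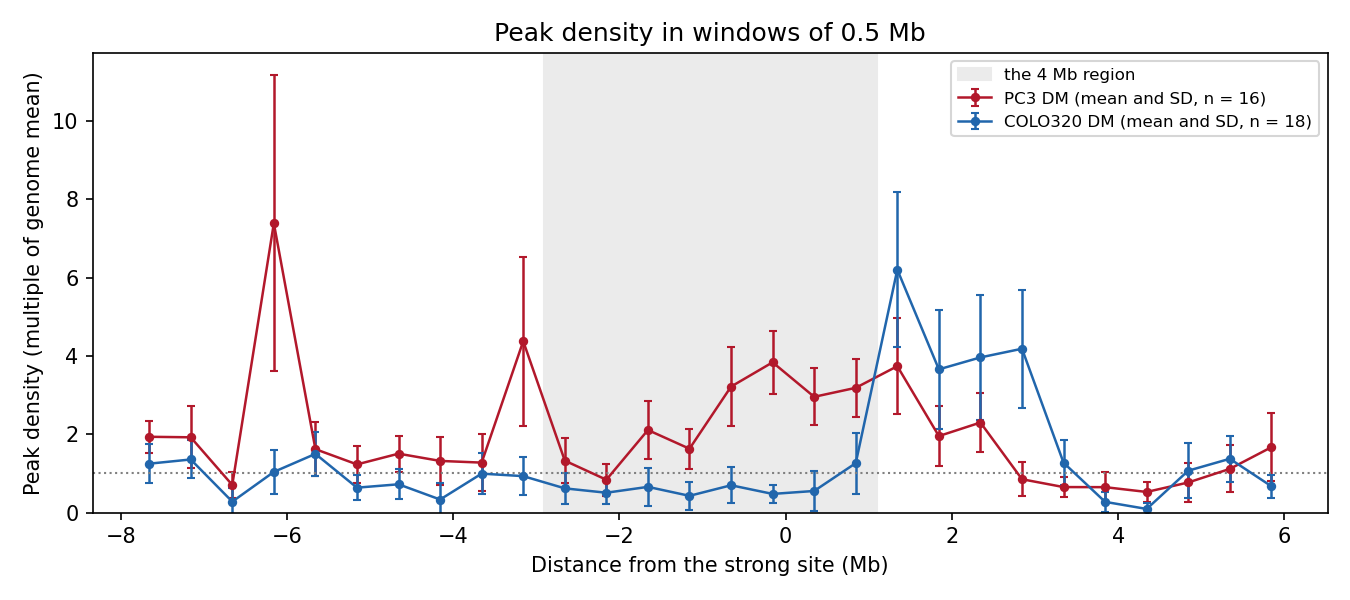
Peak density in windows of 0.5 Mb, as a multiple of the genome mean (vertical axis), against distance from the strong site in Mb (horizontal axis), with the 4 Mb region shaded; points are means and bars the SD over 16 PC3 DM and 18 COLO320 DM libraries. PC3 DM has 2.96 to 3.84 times the genome mean in the last 4 windows of the region, while COLO320 DM has at most 1.26 times in any window of the region and 6.20 times in the window just past its upper edge.

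The strong site was the main landmark of the region in PC3 DM. It carried a peak in 16 of 16 PC3 DM libraries and in 10 of 18 COLO320 DM libraries. No test between the lines is given, because the site was picked out from these lists. All 16 PC3 DM peaks shared the 766 bp from 136907274 to 136908039 on chromosome 8, and their summits lay within 606 bp of each other, at 136907370 to 136907976. The stretch lies outside RefSeq genes. The nearest is the lncRNA gene LINC02055, whose upper end lies 9405 bp below the lowest of the PC3 DM peak starts at the site, and FAM135B, the nearest protein-coding gene, lies 1220023 bp from the 5 kb bin. Of these 5 kb, peaks covered 1104 ± 137.3 bp in the 16 PC3 DM libraries and 275 ± 282 bp in the 18 COLO320 DM libraries (SD, those without a peak counted as 0).

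By q-value the site ranked among the leading peaks of the whole genome in PC3 DM. The rank was 34, 17 and 18 in the ecSE1 libraries, 7, 10 and 10 in ecSE2, 5, 6 and 25 in ecSE6, 6 and 6 in ecSE7, 77, 12 and 31 in the combination, and 5 and 8 in the vector libraries. It was thus among the best 20 peaks in 12 of 16 libraries and among the best 100 in all 16, and it was the best peak of the region in 14. In the 10 COLO320 DM libraries with a peak there, the rank was 2188 to 16622, with a median of 8340. In COLO320 DM the site had a peak in 2 of 3 libraries each of ecSE1, ecSE3, ecSE4, the combination and the vector, and in 0 of 3 of ecSE2.

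The rank of the site came with many fragments and a high local background rather than with a high fold. Its fold in PC3 DM was 4.46 to 7.39, with a median of 5.93, which is 0.819 to 1.45 times the median fold of the same library's peaks. In COLO320 DM the fold was 4.63 to 9.54, also with a median of 5.93. The constant in fold lowers it most where the background is low. The median background of the site was 27.6 fragments in PC3 DM and 1.60 in COLO320 DM, so equal folds are not equal plain ratios. The recovered fragments at the summit numbered 60 to 400 in PC3 DM, with a median of 164, and 10 to 26 in COLO320 DM, with a median of 14.5. The local background was 42.9 to 99.1 times the library's median in PC3 DM and 0.549 to 1.80 times in COLO320 DM. Within the region too, the site stood out, at 11.9 to 27.0 times the median background of the region's own peaks in PC3 DM. Ranked by fold instead of q-value, an ordering tried after the data were seen, its median rank in PC3 DM was 9875 and not 10. The part of the background in the rank was not tested.

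**Figure D3:**
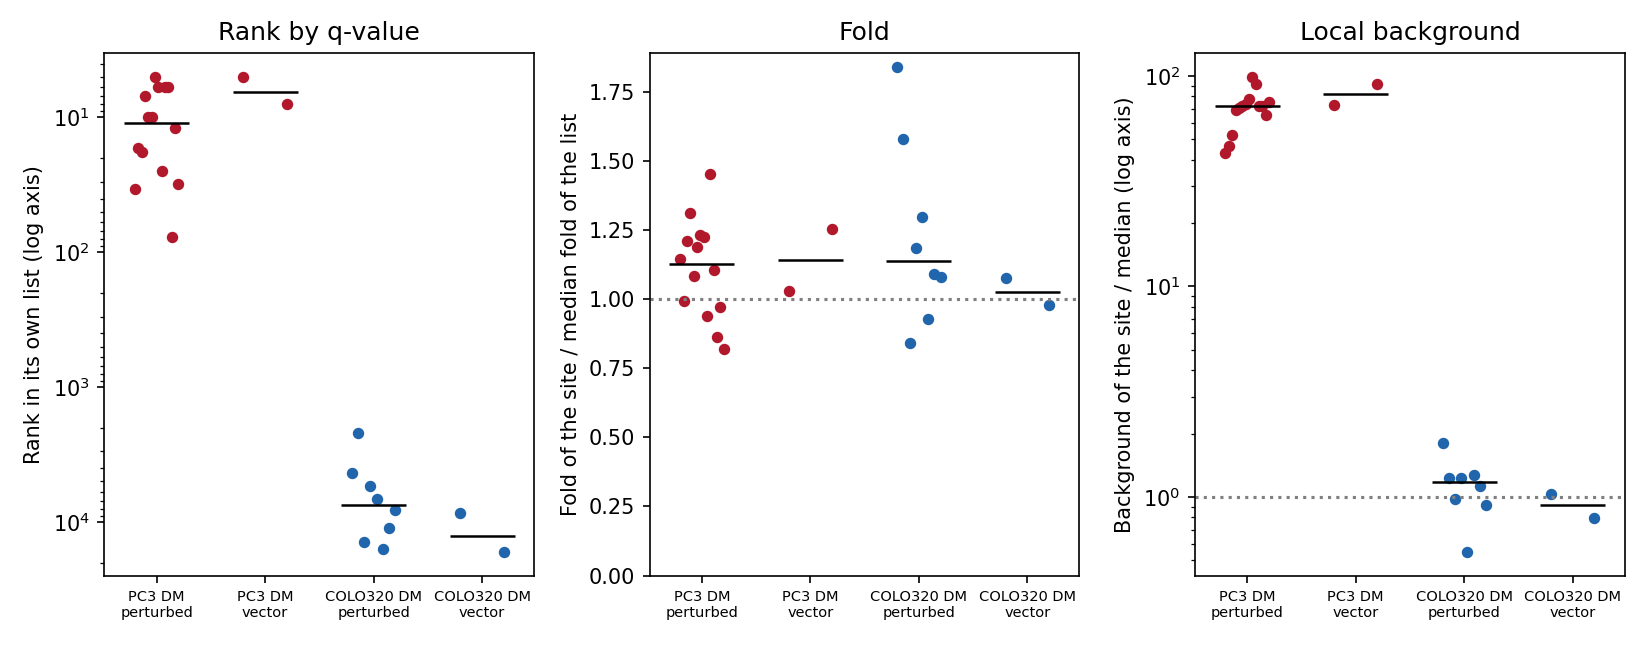
Rank by q-value in the library's own list (left, log axis, best at the top), fold of the site over the list's median fold (middle) and local background of the site over the library's median (right, log axis), for perturbed and vector libraries of each line with a peak at the site. Points are libraries and lines medians. PC3 DM and COLO320 DM overlap in fold but not in rank (5 to 77 and 2188 to 16622) or in background (42.9 to 99.1 and 0.549 to 1.80 times). Fold holds a constant that lowers it most at low backgrounds.

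Peaks of PC3 DM at the strong site belonged to a cluster of 20 kb, 136905001 to 136925000, in which the covered length was 3652 ± 571 bp in PC3 DM and 401 ± 275 bp in COLO320 DM. One more group of peaks, with summits at 136912123 to 136913589, was present in 16 of 16 PC3 DM and 1 of 18 COLO320 DM libraries. Its fold in PC3 DM was lower, at 2.68 to 5.04. Another group, with summits at 136919508 to 136919985, was present in 16 of 16 PC3 DM and 5 of 18 COLO320 DM libraries. Its fold in PC3 DM was 5.38 to 8.34 and its best rank 8. Across the 20 kb, 15 of 18 COLO320 DM libraries had at least 1 peak.

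**Figure D4:**
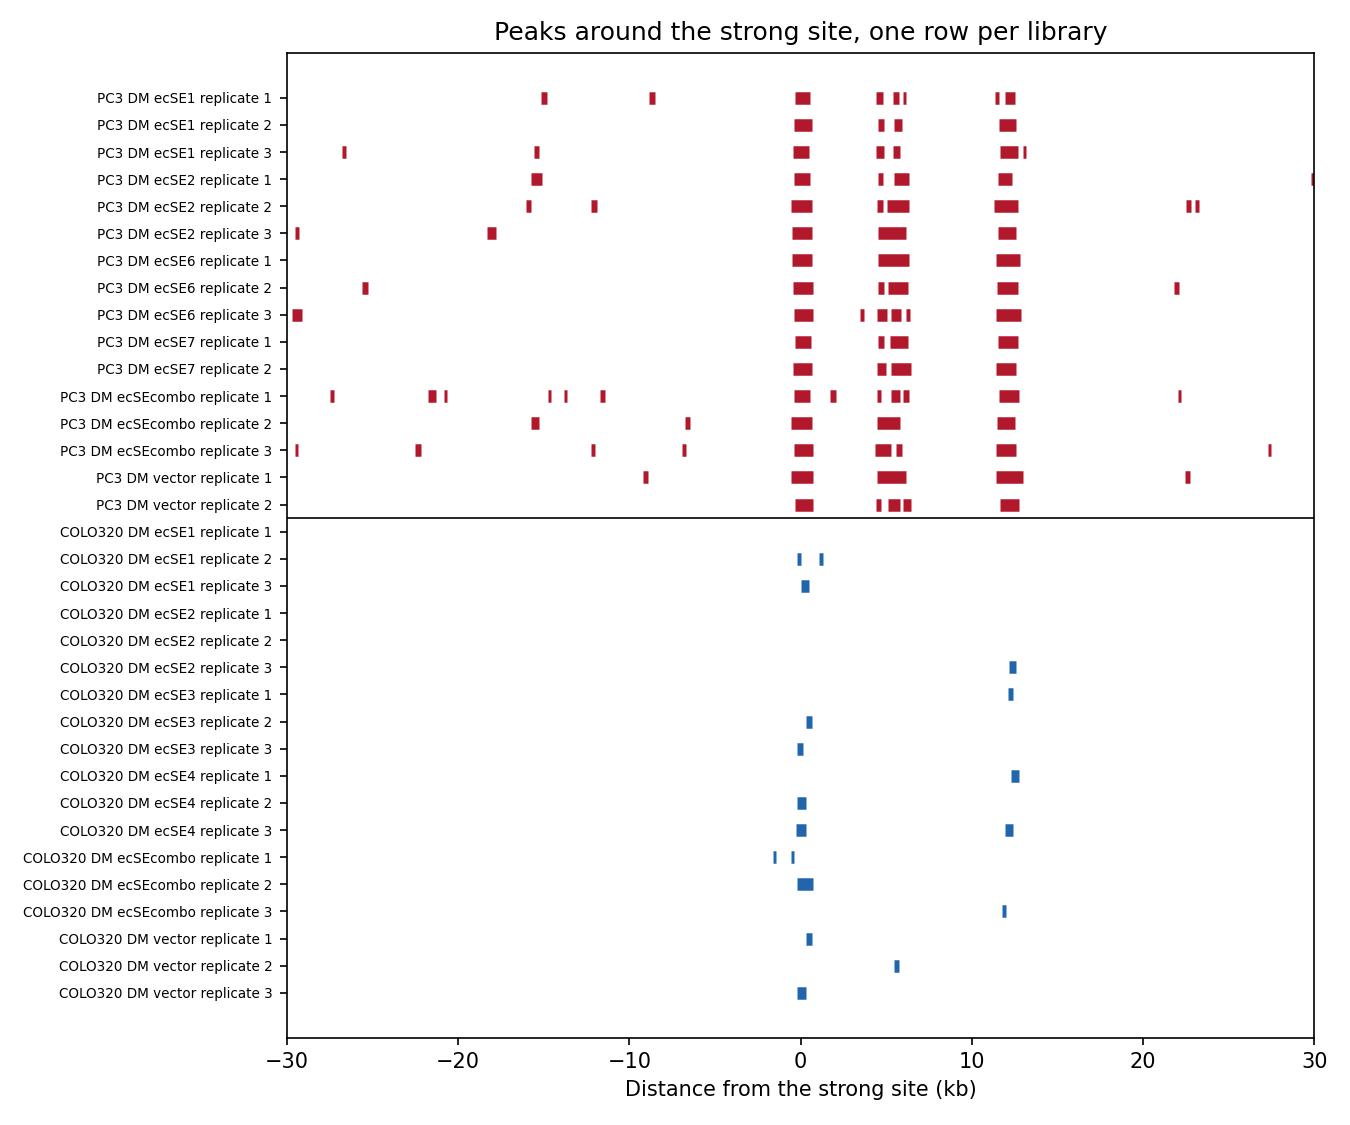
Extent of every peak within 30 kb of the strong site (horizontal axis, distance in kb), 1 row per library, with PC3 DM rows above the line and COLO320 DM rows below it, and vector libraries last in each line. All 16 PC3 DM rows hold the same 3 groups of peaks, while 10 of 18 COLO320 DM rows hold a peak in the 5 kb of the site. In COLO320 DM ecSEcombo replicate 1 those peaks miss the 766 bp that all PC3 DM peaks at the site share.

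Position by position, 5 kb bins were compared between the lines over the whole genome by the share of libraries with a peak (two-sided exact test after Fisher, with Benjamini-Hochberg adjustment, leaving out bins where fewer than 3 of the 34 libraries had, or lacked, a peak). Of 367 region bins tested among 800, 7 had a peak more often in PC3 DM, which is 1.91% of those tested beside 0.598% over all 120164 bins tested. None had a peak more often in COLO320 DM by this test, beside 2.88% over all bins. At an unadjusted p under 0.05 there were 93 region bins in the PC3 DM direction, 25.3% of those tested beside 9.75% over all bins, and 1 in the COLO320 DM direction, 0.272% beside 7.55%. Of the 367 bins, 335 had a peak in fewer than 3 COLO320 DM libraries and 72 in fewer than 3 PC3 DM libraries. Most bins thus needed PC3 DM libraries to be tested at all. The direction of these counts largely restates the denser peaks of PC3 DM in the region and is no separate evidence. Among the 7 bins, 3 belonged to the cluster at the strong site. By the exact test, these were the bin from 136910001, with a peak in 16 of 16 PC3 DM and 1 of 18 COLO320 DM libraries (adjusted p = 5.81e-06), the bin from 136915001, with 16 and 5 (adjusted p = 0.000916), and the bin from 136920001, with 15 and 4 (adjusted p = 0.00211). They adjoin a site that was picked from these lists and are no independent evidence for it.

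The most complete separation was at 137350001 to 137355000, between genes and 51101 bp from the lncRNA gene LOC101927915. It had a peak in 16 of 16 PC3 DM and 0 of 18 COLO320 DM libraries (Fisher's exact test, adjusted p = 5.05e-07). Only 11 of all bins in the genome showed that pattern, and this was the 1 in the region. It covered 561 ± 271 bp in PC3 DM libraries, with a fold of 3.53 to 8.20 and summits spread from 137351098 to 137354169. Its rank was far more variable than that of the strong site, from 53 to 23716 with a median of 946. Fragments at its summit numbered 20 to 57, at a local background of 3.59 to 9.57. All 5 perturbations and the vector had a peak in this bin in each of their PC3 DM libraries, but not at 1 shared position. The only peak of vector replicate 1 was at 137351090 to 137351533. That of ecSE7 replicate 2 was at 137352008 to 137352346, and that of ecSE6 replicate 1 at 137353911 to 137354295, with no overlap among them.

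Inside LINC02055, the bin from 136595001 had a peak in 12 of 16 PC3 DM and 0 of 18 COLO320 DM libraries (Fisher's exact test, adjusted p = 0.000387), and the bin from 136605001 in 8 and 0 (adjusted p = 0.0242). A last bin, from 137060001 and outside genes, also had a peak in 8 and 0 libraries (exact test, adjusted p = 0.0242). The bins from 136605001 and 137060001 were each called with 8 of the 16 PC3 DM libraries, and neither passed on lists shortened to equal length (exact test, adjusted p = 0.0737 for both). Without the combination libraries, that at 137060001 did not pass either (exact test, adjusted p = 0.0864). Leaving out PC3 DM ecSE2 replicate 3 or ecSE7 replicate 1 raised the number of called bins to 11 in either case.

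**Figure D5:**
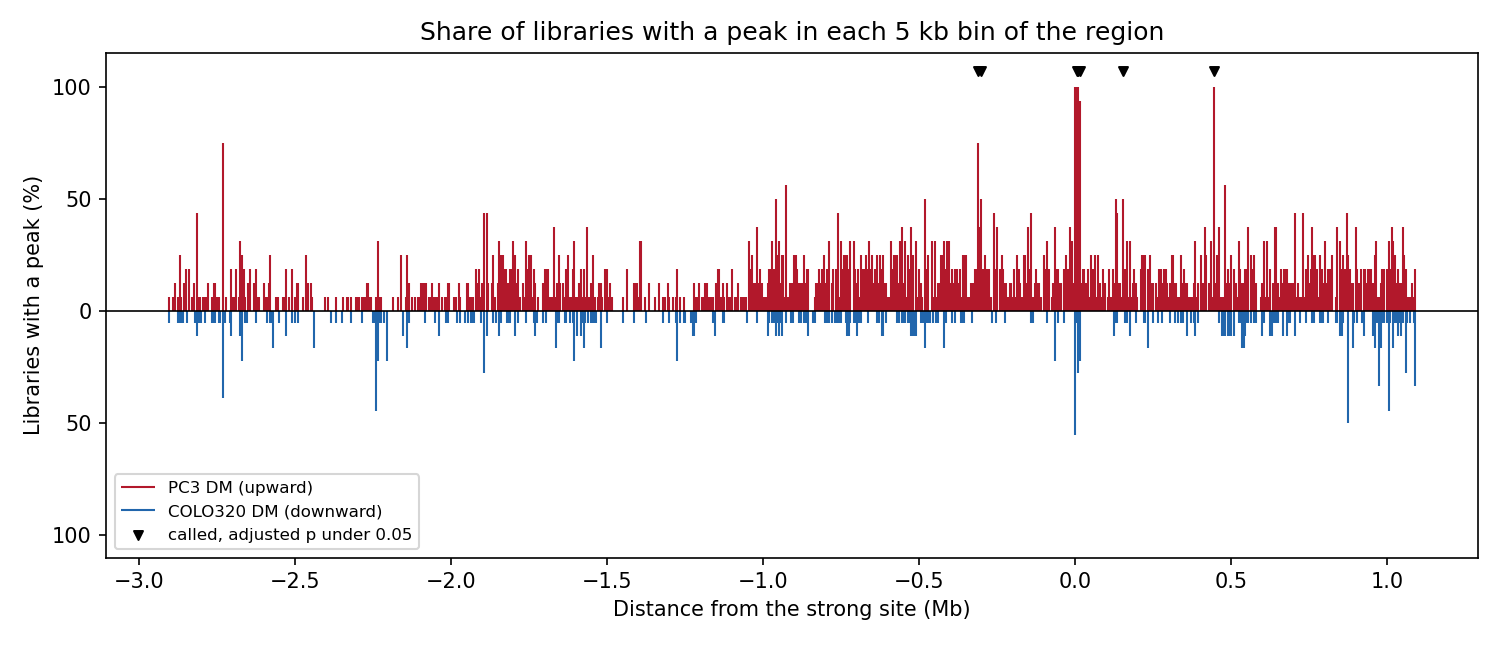
Percentage of libraries with a peak in each 5 kb bin of the region (vertical axis; PC3 DM upward, COLO320 DM downward) against distance from the strong site in Mb. Triangles mark the 7 bins called more often in PC3 DM; the tallest PC3 DM lines, at 100%, stand at the strong site and at the isolated bin above it that COLO320 DM lacks.

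Recurrent sites, bins with a peak in at least 8 of 16 PC3 DM or 9 of 18 COLO320 DM libraries, were scarcer in COLO320 DM. There were 14 such bins in PC3 DM, 1.75% of the region beside 0.804% of the genome, and 2 in COLO320 DM, 0.25% of the region beside 1.61% of the genome. A peak in every library was found in 4 region bins in PC3 DM and in 0 in COLO320 DM, out of 272 and 1335 bins over the genome. In PC3 DM a site shared with COLO320 DM was 134175001 to 134180000, 297788 bp from ZFAT, with a peak in 12 of 16 PC3 DM and 7 of 18 COLO320 DM libraries (exact test, adjusted p = 0.269).

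Besides the strong site, the COLO320 DM recurrent bin was 137780001 to 137785000. It had a peak in 4 of 16 PC3 DM and 9 of 18 COLO320 DM libraries (Fisher's exact test, adjusted p = 0.443). The COLO320 DM peaks began at 137782246 or beyond, past the end of the lncRNA gene LOC105375776 at 137782112. Their folds were 4.95 to 12.9 with a median of 9.49, and the best rank was 376. By plasmid the bin had a peak in 1 of 3 ecSE1, 3 of 3 ecSE2, 3 of 3 ecSE3, 0 of 3 ecSE4, 0 of 3 combination and 2 of 3 vector libraries.

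Genes were compared in the same way, each with 2 kb on either side, over 22361 tested genes. Of 16 region genes tested, 3 had a peak in more PC3 DM than COLO320 DM libraries, beside 4.15% of all genes tested, and 0 in the other direction, beside 2.1% (Fisher's exact test, adjusted). At an unadjusted p under 0.05 there were 7 region genes in the PC3 DM direction, beside 17.9% of all genes tested, and 0 in the COLO320 DM direction, beside 5.11%. LOC401478, a lncRNA gene across the upper edge of the region, could not be tested because all 34 libraries had a peak in it. Its span, chr8:137809674-138083545, runs past the region, and the count takes in the part outside. Within the last megabase of the region, COLO320 DM vector libraries had as few as 0 peaks.

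Among the protein-coding genes, KHDRBS3 (chr8:135457456-135656516), which encodes an RNA-binding regulator of splicing related to SAM68, had a peak in 14 of 16 PC3 DM and 6 of 18 COLO320 DM libraries (exact test, adjusted p = 0.0374). Peaks covered 530 ± 499 bp of it in PC3 DM and 148 ± 341 bp in COLO320 DM. That call was weak: leaving out any 1 of 26 of the 34 libraries ended it, with adjusted p of the exact test from 0.0203 to 0.0619 over all 34, and on lists of equal length the sign of the difference turned (-9.72 points, exact test, adjusted p = 0.832). ZFAT (chr8:134477788-134832339), which encodes a zinc-finger protein with an AT-hook, had a peak in 14 of 16 PC3 DM and 15 of 18 COLO320 DM libraries, over 803 ± 597 and 596 ± 586 bp (exact test, adjusted p = 1). Within ZFAT the bin from 134665001 had a peak in 1 of 16 PC3 DM and 8 of 18 COLO320 DM libraries (exact test, adjusted p = 0.201). LOC124902071, listed as protein-coding inside the span of ZFAT, had a peak in 3 libraries of each line.

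Of the lncRNA genes, LINC02055 (chr8:136530798-136897601) had a peak in 16 of 16 PC3 DM and 9 of 18 COLO320 DM libraries (exact test, adjusted p = 0.0267), over 4199 ± 3010 and 242 ± 332 bp of its 366804 bp. The PC3 DM coverage was 3789 ± 2529 bp in ecSE1, 3539 ± 1375 in ecSE2, 3735 ± 743 in ecSE6, 1690 ± 1059 in ecSE7, 7098 ± 6123 in the combination and 4662 ± 1206 bp in vector libraries. Among COLO320 DM libraries the gene had a peak in 3 of 3 ecSE1 libraries, 2 of 3 each of ecSE2, ecSE3 and ecSE4, and 0 of 3 each of the combination and the vector. LOC124900255, the lncRNA gene just below it, had a peak in 12 of 16 PC3 DM and 3 of 18 COLO320 DM libraries (exact test, adjusted p = 0.0321), over 499 ± 437 and 66.3 ± 153 bp. Without the combination libraries neither passed the exact test, at adjusted p = 0.167 for LINC02055 and 0.179 for LOC124900255. LOC124900255 also did not pass with q-values of 1e-05 or less (exact test, adjusted p = 0.175) or on lists of equal length (0.0789). LINC01591, with 12 and 7 libraries, and LOC101927872, with 8 and 2, did not pass (exact test, adjusted p = 0.201 and 0.147). LOC105375776 had a peak in 10 of 16 PC3 DM and 11 of 18 COLO320 DM libraries (exact test, adjusted p = 1). Without its flanks, which hold the COLO320 DM recurrent peak, its difference was 50.7 points toward PC3 DM (exact test, adjusted p = 0.0344).

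The study's own contrast, perturbed against vector libraries, showed no difference in the region's share beyond the spread between libraries. In PC3 DM the share was 0.311% ± 0.0376 in perturbed libraries (SD, n = 14) and 0.345% ± 0.0768 in vector libraries (SD, n = 2), a difference of -0.0334 points (two-sided exact permutation test, p = 0.3). The vector libraries were at 0.399% and 0.290%, and without vector replicate 1 the difference was 0.0209 points. In COLO320 DM it was 0.0886% ± 0.0260 in perturbed libraries (SD, n = 15) and 0.0721% ± 0.0324 in vector libraries (SD, n = 3), a difference of 0.0165 points (two-sided exact permutation test, p = 0.349), which turned to -0.0163 points on lists of equal length. The difference between these contrasts in the 2 lines was -0.0500 points (permutation test within lines, p = 0.167).

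By plasmid, PC3 DM shares were 0.279%, 0.340% and 0.284% in ecSE1, 0.253%, 0.331% and 0.283% in ecSE2, 0.328%, 0.314% and 0.310% in ecSE6, 0.271% and 0.329% in ecSE7, and 0.392%, 0.355% and 0.289% in the combination. COLO320 DM shares were 0.120%, 0.141% and 0.0860% in ecSE1, 0.0483%, 0.106% and 0.123% in ecSE2, 0.0832%, 0.0777% and 0.0929% in ecSE3, 0.0749%, 0.0712% and 0.0983% in ecSE4, 0.0809%, 0.0489% and 0.0759% in the combination, and 0.0668%, 0.0426% and 0.107% in the vector. Each plasmid overlapped its vector in range, and each of the 10 exact permutation tests had an adjusted p of 1. With 3 libraries against 3, no such test can give a p below 0.1.

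For single positions, libraries of a plasmid and of the combination together were compared with all other libraries of the line. No bin in the genome was called in any of the 8 comparisons, 0% of 62247 bins tested in PC3 DM and 0% of 37638 in COLO320 DM (Fisher's exact test, Benjamini-Hochberg adjusted). On the 100 best peaks of each list, which left far fewer bins to test (123 in COLO320 DM), 1, 2, 2 and 0 bins of the genome were called for ecSE1, ecSE2, ecSE6 and ecSE7 in PC3 DM, and 4, 3, 2 and 5 for ecSE1 to ecSE4 in COLO320 DM. On the 1000 best peaks, 0 were called in PC3 DM and 2, 2, 2 and 0 in COLO320 DM. None of these lay in the region, which had 2 testable bins in PC3 DM and 0 in COLO320 DM in either setting. In simulated data for ecSE1 in PC3 DM, 0% of 100 planted complete separations were recovered, so the PC3 DM test could not detect even those. For ecSE1 in COLO320 DM 100% of 100 complete separations planted together were recovered, and 3% of differences of 60 points. Planting many at once eases the adjustment. The smallest p that Fisher's exact test could give there was 5.39e-05, so over 37638 bins a lone complete separation could not pass. At an unadjusted p under 0.05, PC3 DM had 14, 16, 7 and 2 of 290 region bins for ecSE1, ecSE2, ecSE6 and ecSE7, and COLO320 DM had 1, 0, 1 and 1 of 32 for ecSE1, ecSE2, ecSE3 and ecSE4. In PC3 DM these were 4.83%, 5.52%, 2.41% and 0.690% of region bins tested, beside 5.13%, 4.16%, 3.46% and 1.19% over all bins, and so near the background. All of these PC3 DM bins had a peak more often in the libraries of the plasmid and the combination. The PC3 DM comparisons share the combination libraries, of which replicate 1 had 102286 peaks, and so are not independent. The part of list length in this direction was not tested. For COLO320 DM the shares over all bins were 2.53%, 1.17%, 1.15% and 1.34%, against at most 3.12% of the 32 region bins. The smallest p in COLO320 DM was at the recurrent bin from 137780001, with a peak in 0 of 6 ecSE4 and combination libraries and 9 of 12 others (exact p = 0.00905, adjusted p = 1). In PC3 DM it was at the bin from 136445001, named for that p after its values were seen, with a peak in 5 of 6 ecSE2 and combination libraries and 0 of 10 others (exact p = 0.00137, adjusted p = 0.858). The strong site had a peak in each PC3 DM library of each plasmid, over 925 ± 78.4 bp in ecSE1, 1144 ± 143 in ecSE2, 1150 ± 61.3 in ecSE6, 1018 ± 133 in ecSE7, 1208 ± 102 in the combination and 1173 ± 139 bp in vector libraries.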

How the data were processed

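CUT&Tag libraries gave 1 deposited peak list each, on hg38; the submitters' processing notes name MACS2 2.2.7.1, Bowtie2 2.3.5 and Trim Galore 0.6.6, besides bedtools and SAMtools, with no role or order. Each deposited list gives the authors' positions, display score, fold (a ratio of summit to local background), and −log10 p-value and −log10 q-value for each peak. The score was not used. All q-values lay at 0.001 or below, the FDR the list names state. No source used here says whether a control library was used. The fold and q describe or rank peaks within a list.

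The 12 peaks off autosomes and X were dropped. A peak belonged to the region by its midpoint, and to a bin or gene by 1 bp of overlap. Ranks were by q-value, then fold. Fragments and local background at summits were recovered from fold and p, with fold taken as fragments plus 1 over background plus 1. Whole fragment numbers gave back the −log10 p-value within 0.0005 for at least 99.85% of the peaks solved in each library. Gene spans came from RefSeq on GRCh38.p14, the build of hg38, with no strand or exons in the table used, so introns, exons and UTRs are not given. Shares were compared by permutation and neighbours by sign flips, 100000 resamples where not exact. Bins and genes were compared by Fisher's exact test with Benjamini-Hochberg adjustment at 0.05 over the whole genome. The planned check of the cell-line labels is not reported here. Single perturbations were grouped with the combination, which assumes that it contains them.

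The region, its strong site and the lists were chosen with earlier results of these data known. Named genes were the protein-coding genes of the region and others with a peak in at least 8 of 16 PC3 DM or 9 of 18 COLO320 DM libraries; named bins were the strong site, up to 8 bins of each line with a peak in the most libraries, and those called. Other settings were q-values of 1e-05 or less, lists of 9385 peaks each, covered length, 500 bp of overlap, bins of 10 kb, genes without flanks, the 100 or 1000 best peaks, and libraries left out; ranking by fold was added after seeing the data, as were the other settings at the strong site. Tests were tested on simulated data: between the lines, 100% of 100 planted complete separations and 21% of 100 differences of 60 points were recovered among 120164 bins. Replicate numbers came from the titles and no label says that they mark separate cultures. The p-values therefore measure only how far libraries differ, which may be technical. Figures used matplotlib 3.10.9; the rest used scipy 1.17.1, pandas 2.3.3 and numpy 2.4.6 under Python 3.11.15.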

Additional observations from a re-analysis of the deposited data

How the results depend on the processing

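The excess of region peaks in PC3 DM over COLO320 DM was 0.219 to 0.362 points under every other setting with all plasmids or all but the combination (permutation p = 1e-05 in each, the smallest possible) and 0.224 to 0.234 with each library left out. On vector libraries alone it was 0.273 (exact permutation p = 0.1), and the neighbour differences were then -1.50 and -11.5 peaks per Mb in COLO320 DM and 11.8 in PC3 DM, none past the threshold with so few libraries. With each library left out those 4 differences ranged from 0.833 to 4.18 (PC3 DM against the 4 Mb below), -1.34 to -1.09 (COLO320 DM, below), 9.78 to 12.6 (PC3 DM against the 4 Mb above) and -13.8 to -12.4 (COLO320 DM, above). By covered length the first was -2.30 kb per Mb.

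Several perturbation differences changed sign. Lists of equal length turned COLO320 DM perturbed minus vector to -0.0163 points, and ecSE2, ecSE3 and ecSE4 to -0.00710, -0.00355 and -0.0249. With q-values of 1e-05 or less, PC3 DM ecSE7 turned to 0.0428 and the combination to -0.00937. With each library left out, PC3 DM perturbed minus vector ranged from -0.0878 to 0.0209, ecSE1 from -0.0980 to 0.0106, ecSE6 from -0.0818 to 0.0268, ecSE7 from -0.0987 to 0.00999 and the combination from -0.0537 to 0.0550. In COLO320 DM, ecSE3 ranged from -0.00215 to 0.0299, ecSE4 from -0.00528 to 0.0268 and the combination from -0.0182 to 0.0139. The cause was not tested.

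Bins called more often in PC3 DM numbered 5 to 10 under other settings and 7 to 11 with each library left out. Called genes fell to 1 with q-values of 1e-05 or less, 1 on lists of equal length and 0 without the combination, and numbered 2 to 3 with each library left out. Among genes that were not called, the share of libraries (PC3 DM minus COLO320 DM) changed sign for LOC105375776 without the combination (-11.8 points) and within -2.21 to 5.56 with each library left out, for ZFAT with stricter q-values (-4.86) and within -0.735 to 10.0, and for LOC124902071 on lists of equal length (-4.86) and within -3.33 to 6.99. KHDRBS3 turned to -9.72 on lists of equal length. COLO320 DM libraries with a peak at the strong site numbered 6 on lists of equal length and 5 at 500 bp of overlap. Ranking by fold gave a median rank of 9875 in PC3 DM.

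Replicate numbers did not pair PC3 DM libraries: 11 of 36 same-numbered pairs correlated above 0.1, beside 25 of 70 differently numbered pairs. COLO320 DM leaned weakly toward pairing, with 20 of 45 same-numbered pairs above 0.1 (median r 0.0569), beside 19 of 90 others (median r -0.0235). In PC3 DM 6 of 16 libraries, and in COLO320 DM 8 of 18, correlated best with their own number. With a replicate block the line difference was 0.227 points, 8 bins and 3 genes were called, and perturbed minus vector was -0.0255 in PC3 DM and 0.0165 in COLO320 DM. Without read totals, a peak missing from a short list may lie below its threshold, and list lengths differ by over 10 times.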
